A study of Mus musculus with 8 samples.

Results

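The interferon response genes followed here are 44 mouse genes of the interferon system: receptors, transcription factors, antiviral proteins, interferon-inducible GTPases, the immunoproteasome and feedback inhibitors. They were taken as a list of names, and every probe set whose array annotation names 1 of them alone was used, with older aliases matched. Of the 44 genes, 37 had such a probe set, with 45 probe sets among the 12422 of the array that are no control, and 44 of the 10953 probe sets bright enough to test. Irf2, Stat2, Oas1a, Oasl2, Ifi203, Bst2 and Psme2 were not analysed here.

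Whole lung RNA of C3H/HeOuJ and C3H/HeJ mice was read on Affymetrix oligonucleotide arrays, 2 arrays in each of 4 groups. The groups were C3H/HeOuJ after ozone, C3H/HeOuJ after filtered air, C3H/HeJ after ozone and C3H/HeJ after filtered air. An exposure of 72 h is given for both C3H/HeOuJ groups, no duration is given for C3H/HeJ, and no ozone concentration or age is given for any group. Tlr4, which encodes the receptor for endotoxin, is mutated in C3H/HeJ mice and intact in C3H/HeOuJ mice, and the series title names ozone and the permeability of the airways. Whether the arrays 1a and 1b of a group came from different animals is not stated, so a p-value reflects only how far these arrays differ, which may be technical.

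Interferons are secreted when cells sense virus, nucleic acid or bacterial products. Type I interferons act through the receptor chains Ifnar1 and Ifnar2 and mainly switch on genes with an interferon-stimulated response element (ISRE) in their promoters. Interferon gamma acts through Ifngr1 and Ifngr2 on genes with a gamma-activated sequence (GAS), and it induces the GTPases and the immunoproteasome most strongly. In the lung these genes are known from viral infection, and Tlr4 is 1 of the receptors that can start type I interferon production.

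The motifs by which the pathway acts were looked up in RefSeq promoter windows (build GRCm38.p6) running from 250 bases before to 50 bases after a gene's start. The ISRE core was searched as GAAANNGAAA and GAS as TTCNNNGAA, on both strands, and matches of the 2 motifs may overlap. Of the 44 members, 39 had a window, and Ifi204, Mx1, Mx2, Iigp1 and Usp18 had none. The ISRE core was in the windows of 17 of the 39 genes (34.0% of their 50 windows, against 3.44% of all 32851 windows), and GAS was in 15 of 39 (30% of their windows, against 8.3% of all). By role, the ISRE core was found for 9 of 16 antiviral genes, 4 of 5 GTPases, 2 of 8 transcription factors, 1 of 5 immunoproteasome genes, 1 of 1 inhibitor and 0 of 4 receptors.

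The 160 bases before the start are shown for 5 members whose arrays are set side by side below: Isg15 and Igtp, with all 4 ozone arrays below all 4 air arrays, Ifit3, with the ozone arrays above, and Ifit1 and Rsad2, lowest on the C3H/HeOuJ ozone arrays. Capitals mark the ISRE core, and each stretch reads 5′ to 3′ on the gene's own strand.
Isg15 (chr4:156200819-156200978, minus strand): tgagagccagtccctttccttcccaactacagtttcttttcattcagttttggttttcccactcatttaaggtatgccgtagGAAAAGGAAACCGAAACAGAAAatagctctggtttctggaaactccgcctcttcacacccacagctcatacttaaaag
Igtp (chr11:58199396-58199555, plus strand): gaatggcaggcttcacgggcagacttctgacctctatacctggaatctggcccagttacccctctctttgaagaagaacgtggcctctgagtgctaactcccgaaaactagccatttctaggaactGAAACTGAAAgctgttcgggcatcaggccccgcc
Ifit3 (chr19:34583369-34583528, plus strand): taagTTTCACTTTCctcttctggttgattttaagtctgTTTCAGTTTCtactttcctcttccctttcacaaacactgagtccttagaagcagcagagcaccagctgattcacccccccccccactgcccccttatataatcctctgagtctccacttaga
Ifit1 (chr19:34640729-34640888, plus strand): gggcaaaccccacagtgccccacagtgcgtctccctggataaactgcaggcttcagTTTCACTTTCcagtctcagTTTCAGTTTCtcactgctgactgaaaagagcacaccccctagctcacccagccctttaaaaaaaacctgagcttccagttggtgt
Rsad2 (chr12:26456453-26456612, minus strand): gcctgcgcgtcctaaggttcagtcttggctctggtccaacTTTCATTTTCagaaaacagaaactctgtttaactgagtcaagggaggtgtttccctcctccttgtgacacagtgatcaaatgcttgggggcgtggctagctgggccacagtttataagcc
Isg15 held 3 overlapping copies, the first beginning 78 bases before the start, and Igtp 1 copy beginning 34 bases before it. Ifit3 and Ifit1, which lie on the same chromosome, each held 2 copies in the reverse direction, beginning at 156 and 122 bases in Ifit3 and at 104 and 85 bases in Ifit1. Rsad2 held 1 reverse copy at 120 bases. A match is a description of these letters, and no binding was measured.

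**Figure D1:**
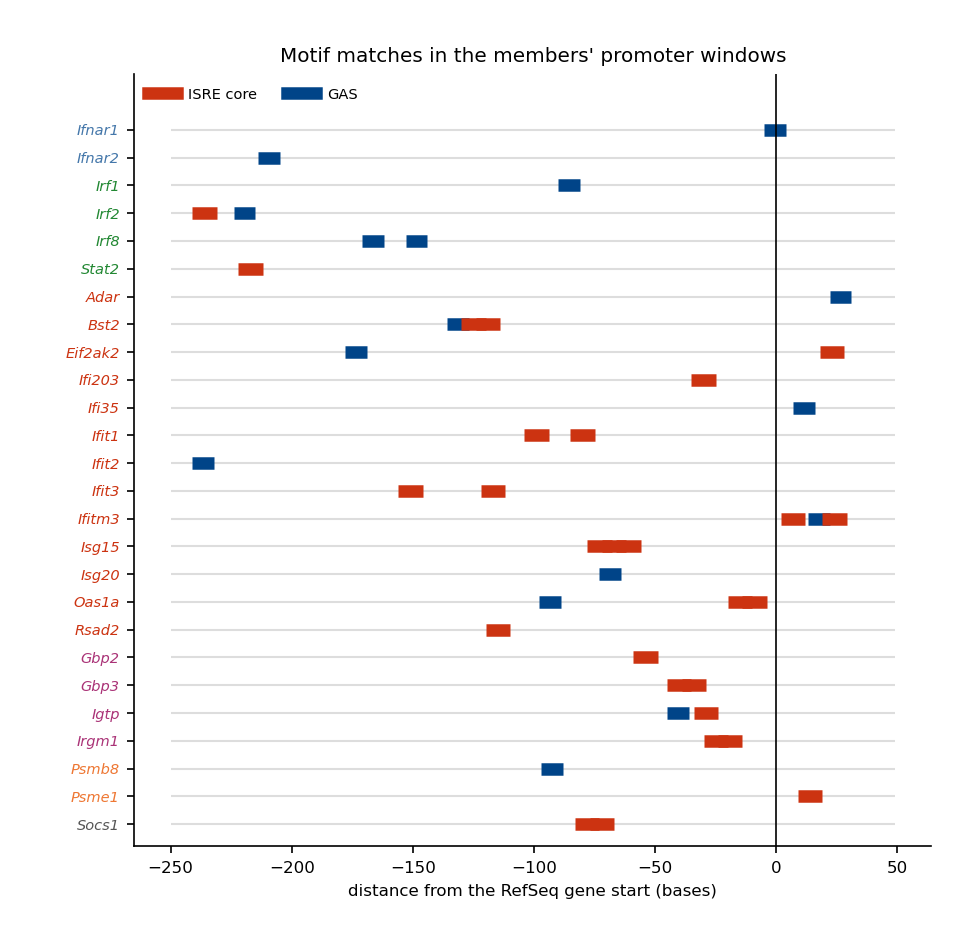
Positions of ISRE core (red) and GAS (blue) matches in the promoter windows of the 26 members with either motif; the x axis is the distance from the RefSeq gene start in bases, the grey lines are the windows, and gene names are coloured by role. ISRE matches of the GTPases Gbp2, Gbp3, Igtp and Irgm1 all lie close before the start. Several genes hold more than 1 copy, among them Ifit1, Ifit3, Isg15, Gbp3 and Irgm1.

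Intensities are given on a linear scale, as deposited; values under a floor of 69.6 were raised to it before log2 was taken. All 8 arrays entered 1 limma model of 4 group means, and its p-values were adjusted (Benjamini-Hochberg, 10953 probe sets, threshold 0.05). Array medians ranged between 350.1 and 385, and none of the 7 measured lung epithelium markers was below the floor on all arrays. The C3H/HeOuJ ozone arrays stood apart in RNA quality: the 5'/3' ratio of the actin control was 0.766 and 0.756 on them, against 0.598 and 0.603 in C3H/HeOuJ air, 0.505 and 0.530 in C3H/HeJ ozone and 0.498 and 0.432 in C3H/HeJ air. In bulk lung, fewer cells of a type and less RNA per cell cannot be told apart.

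No member passed the threshold in any of the 6 comparisons made with limma. For the ozone effect in C3H/HeOuJ, 0 of 44 member probe sets passed, against 0.456% of all probe sets (50 probe sets). For the ozone effect in C3H/HeJ, 0 of 44 passed and 0% of all. For the ozone effect averaged over the strains it was 0 of 44 against 0.0183% of all, for the strain difference in air 0 of 44 against 0.0456%, for the strain difference averaged over the exposures 0 of 44 against 0.155%, and for the difference of the ozone effects between the strains 0 of 44 against 0%. The members described below are therefore given by their values, and none of them is called changed.

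At an unadjusted p under 0.05, 5 member probe sets were higher and 4 lower in C3H/HeOuJ ozone than in C3H/HeOuJ air, out of 44, where 7.77% of all probe sets were higher and 7.73% lower. In C3H/HeJ the same count was 0 higher and 1 lower, where 2.36% and 1.99% of all were. The median log2 fold change of the members, ozone over air, was -0.12 in C3H/HeOuJ (18 higher, 26 lower), against 0.02 over all probe sets, and -0.08 in C3H/HeJ (17 higher, 27 lower), against 0.01. A joint increase of the interferon response genes after ozone was not seen in either strain, and the members of each role are described in turn.

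**Figure D2:**
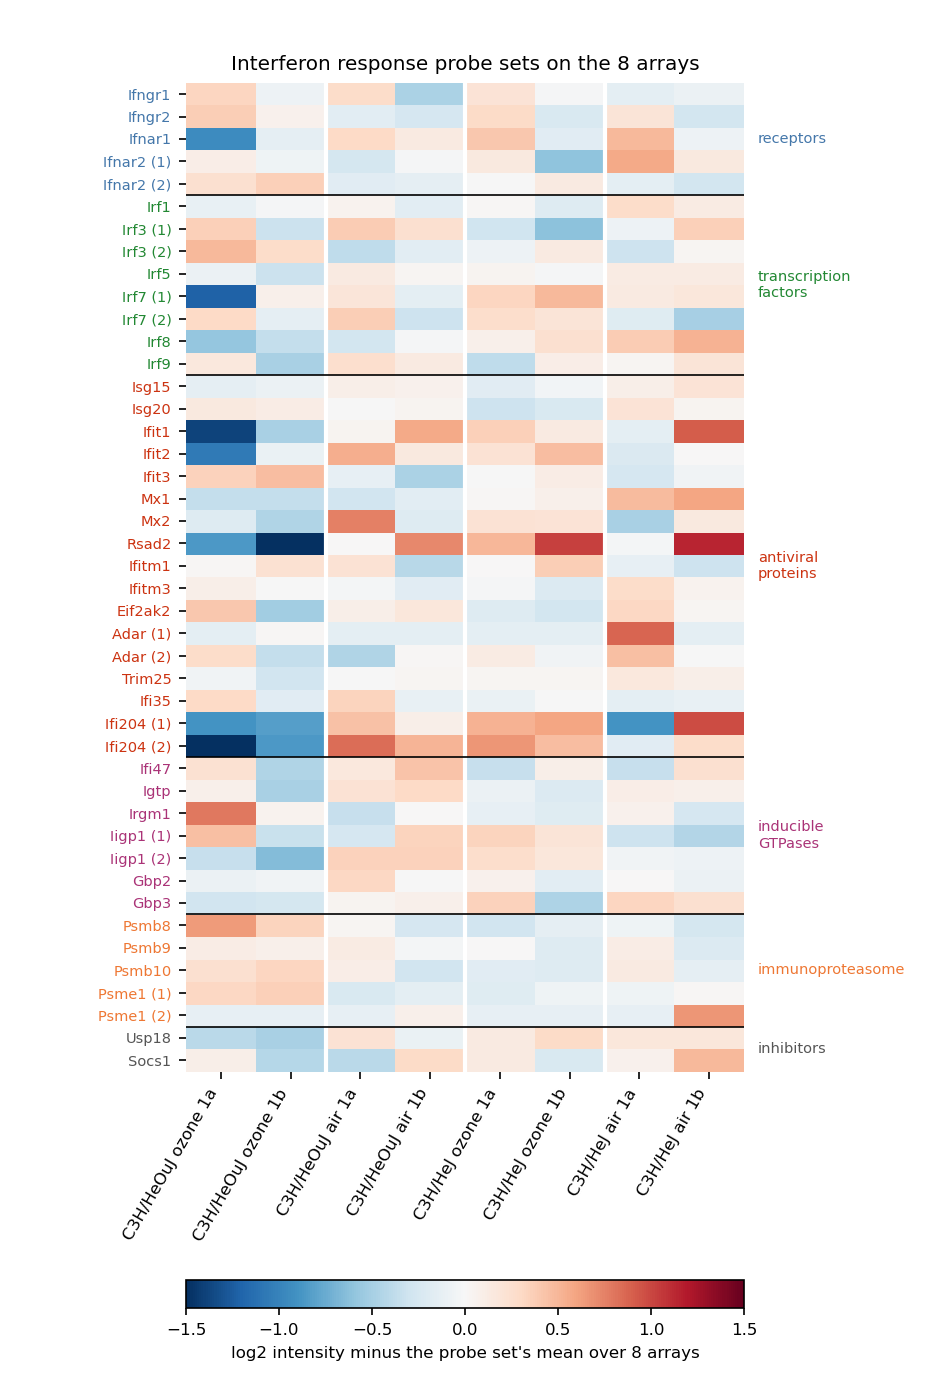
Each row is 1 of the 44 tested member probe sets and each column 1 array; the colour is the log2 intensity minus the probe set's mean over the 8 arrays, cut off at -1.5 and 1.5, and (1) and (2) number probe sets of the same gene. In the C3H/HeOuJ ozone columns Rsad2, Ifit1 and Ifi204 are blue while Psmb8, Psmb10 and the first Psme1 probe set are red.

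The immunoproteasome replaces the standard catalytic subunits under interferon gamma and shapes the peptides shown on MHC class I. For Psme1, Psmb8 and Psmb10 both C3H/HeOuJ ozone arrays were above all other arrays. Ifit3, Irf3 and an Ifnar2 probe set had that order too, and its share among all probe sets was not counted. Psme1, the alpha subunit of the proteasome activator PA28, had an intensity of 3312 and 3417 in C3H/HeOuJ ozone, 2275 and 2420 in C3H/HeOuJ air, 2356 and 2552 in C3H/HeJ ozone and 2549 and 2699 in C3H/HeJ air. Both C3H/HeOuJ ozone arrays lay above the other 6. The log2 fold change of Psme1, ozone over air, was 0.52 (SE 0.12) in C3H/HeOuJ, with an unadjusted p of 0.00214 and an adjusted p of 0.0999 by limma. In C3H/HeJ it was -0.10 (SE 0.12), and the difference between the strains was 0.62 (SE 0.17, adjusted p 0.245 by limma).

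Psmb8, the catalytic subunit also called LMP7, had 4275 and 3458 in C3H/HeOuJ ozone, 2800 and 2298 in C3H/HeOuJ air, 2247 and 2491 in C3H/HeJ ozone and 2619 and 2279 in C3H/HeJ air. Here too the C3H/HeOuJ ozone pair lay above all other arrays. Its log2 fold change was 0.60 (SE 0.16) in C3H/HeOuJ (limma, adjusted p 0.145) and -0.05 (SE 0.16) in C3H/HeJ. Psmb10, the subunit MECL-1, had 2449 and 2597 in C3H/HeOuJ ozone, 2221 and 1697 in C3H/HeOuJ air, 1846 and 1811 in C3H/HeJ ozone and 2277 and 1888 in C3H/HeJ air. The C3H/HeOuJ ozone pair was again on top, by a smaller margin, with a log2 fold change of 0.38 (SE 0.16) in C3H/HeOuJ (limma, adjusted p 0.319) and -0.18 (SE 0.16) in C3H/HeJ.

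Psmb9, the third inducible catalytic subunit, did not share that order: it had 1514 and 1477 in C3H/HeOuJ ozone, 1537 and 1376 in C3H/HeOuJ air, 1418 and 1228 in C3H/HeJ ozone and 1521 and 1225 in C3H/HeJ air. Its log2 fold change in C3H/HeOuJ was 0.04 (SE 0.16). The other Psme1 probe set was below the floor on 6 of 8 arrays, both C3H/HeOuJ ozone arrays included, and gives no usable level. Of the 4 immunoproteasome probe sets with a usable level, 4 had a higher mean in ozone than in air in C3H/HeOuJ and 0 in C3H/HeJ.

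These subunits were set beside the genes of the standard proteasome, a list chosen after their values were seen. Psmb5 and Psmb6, the standard counterparts of Psmb8 and Psmb9, had log2 fold changes of 0.54 (SE 0.16, adjusted p 0.169 by limma) and 0.80 (SE 0.21, adjusted p 0.141) in C3H/HeOuJ, and 0.15 and -0.28 in C3H/HeJ. Psmb7, the counterpart of Psmb10, had -0.16 in C3H/HeOuJ, and the other activators Psme3 and Psme4 had -0.57 and -0.18. The higher values in C3H/HeOuJ ozone were thus seen in both inducible and standard subunits. When the 5'/3' ratio of the control transcripts was added to the model, the log2 fold change in C3H/HeOuJ was 0.71 for Psme1, 0.08 for Psmb8 and -0.14 for Psmb10, none with an adjusted p under 0.05. In this model, here and below, the slope on the ratio came only from differences between the arrays of a group. In C3H/HeOuJ the actin ratio differed less between the arrays of a group than between ozone and air. The values are thus extrapolated, and whether the ratio accounts for any difference was not tested.

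Antiviral proteins gave the largest differences, mostly at low intensity. Rsad2, which encodes viperin, a maker of a chain-terminating nucleotide, had 220.3 and 66.0 in C3H/HeOuJ ozone, 401 and 659.7 in C3H/HeOuJ air, 562 and 813 in C3H/HeJ ozone and 392 and 882 in C3H/HeJ air. Both C3H/HeOuJ ozone arrays were the lowest of the 8, and 1 of them was below the floor. The log2 fold change of Rsad2 was -2.05 (SE 0.60) in C3H/HeOuJ (limma, adjusted p 0.164) and 0.20 (SE 0.60) in C3H/HeJ, where the arrays of a group varied widely. Without the dimmer C3H/HeOuJ ozone array, 1b, the C3H/HeOuJ value was -1.22, and with the 5'/3' ratio in the model it was -1.06.

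Ifi204, a cytosolic DNA sensor of the p200 family, had 49.2 and 127 in C3H/HeOuJ ozone, 413 and 329.7 in C3H/HeOuJ air, 366 and 319 in C3H/HeJ ozone and 206 and 279 in C3H/HeJ air on its brightest probe set. Its log2 fold change was -1.97 (SE 0.41) in C3H/HeOuJ, with an unadjusted p of 0.0011 and an adjusted p of 0.079 by limma, against 0.51 (SE 0.41) in C3H/HeJ. On that probe set 1 C3H/HeOuJ ozone array was below the floor. A second Ifi204 probe set had -1.12 (SE 0.55) and 0.51 (SE 0.55), with 1 C3H/HeOuJ ozone array and 1 C3H/HeJ air array below the floor. Its C3H/HeJ air arrays, at 46.7 and 256, lay on either side of the C3H/HeJ ozone arrays, at 185 and 195. The third probe set was below the floor on all 8 arrays. The suffix of the brightest probe set marks probes shared within a gene family, so related p200 genes may contribute to it.

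The 3 Ifit genes, which bind viral RNA and limit its translation, did not share a direction. Ifit1 had 82.0 and 153 in C3H/HeOuJ ozone, 222 and 319 in C3H/HeOuJ air, 275 and 236 in C3H/HeJ ozone and 194 and 403 in C3H/HeJ air. Ifit2 had 52.7 and 136 in C3H/HeOuJ ozone, 213 and 161 in C3H/HeOuJ air, 169 and 201 in C3H/HeJ ozone and 126 and 147 in C3H/HeJ air. Ifit1 was lowest on the C3H/HeOuJ ozone arrays, and Ifit2 overlapped with C3H/HeJ air.

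Ifit3 ran the other way, with 1222 and 1331 in C3H/HeOuJ ozone, 884 and 691 in C3H/HeOuJ air, 962 and 1042 in C3H/HeJ ozone and 806 and 925 in C3H/HeJ air. All 4 ozone arrays were above all 4 air arrays. The log2 fold changes in C3H/HeOuJ were -1.25 (SE 0.49, adjusted p 0.272 by limma) for Ifit1, -0.93 (SE 0.41, adjusted p 0.325) for Ifit2 and 0.71 (SE 0.18, adjusted p 0.134) for Ifit3. In C3H/HeJ they were -0.13 (SE 0.49), 0.44 (SE 0.41) and 0.21 (SE 0.18). In the model that holds the 5'/3' ratio, the C3H/HeOuJ value turned to 0.59 for Ifit1 and was 0.73 for Ifit3; without C3H/HeOuJ ozone array 1a it was -0.80 for Ifit1. Averaged over the strains, Ifit3 had a log2 fold change of 0.46 (SE 0.13, adjusted p 0.358 by limma).

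**Figure D3:**
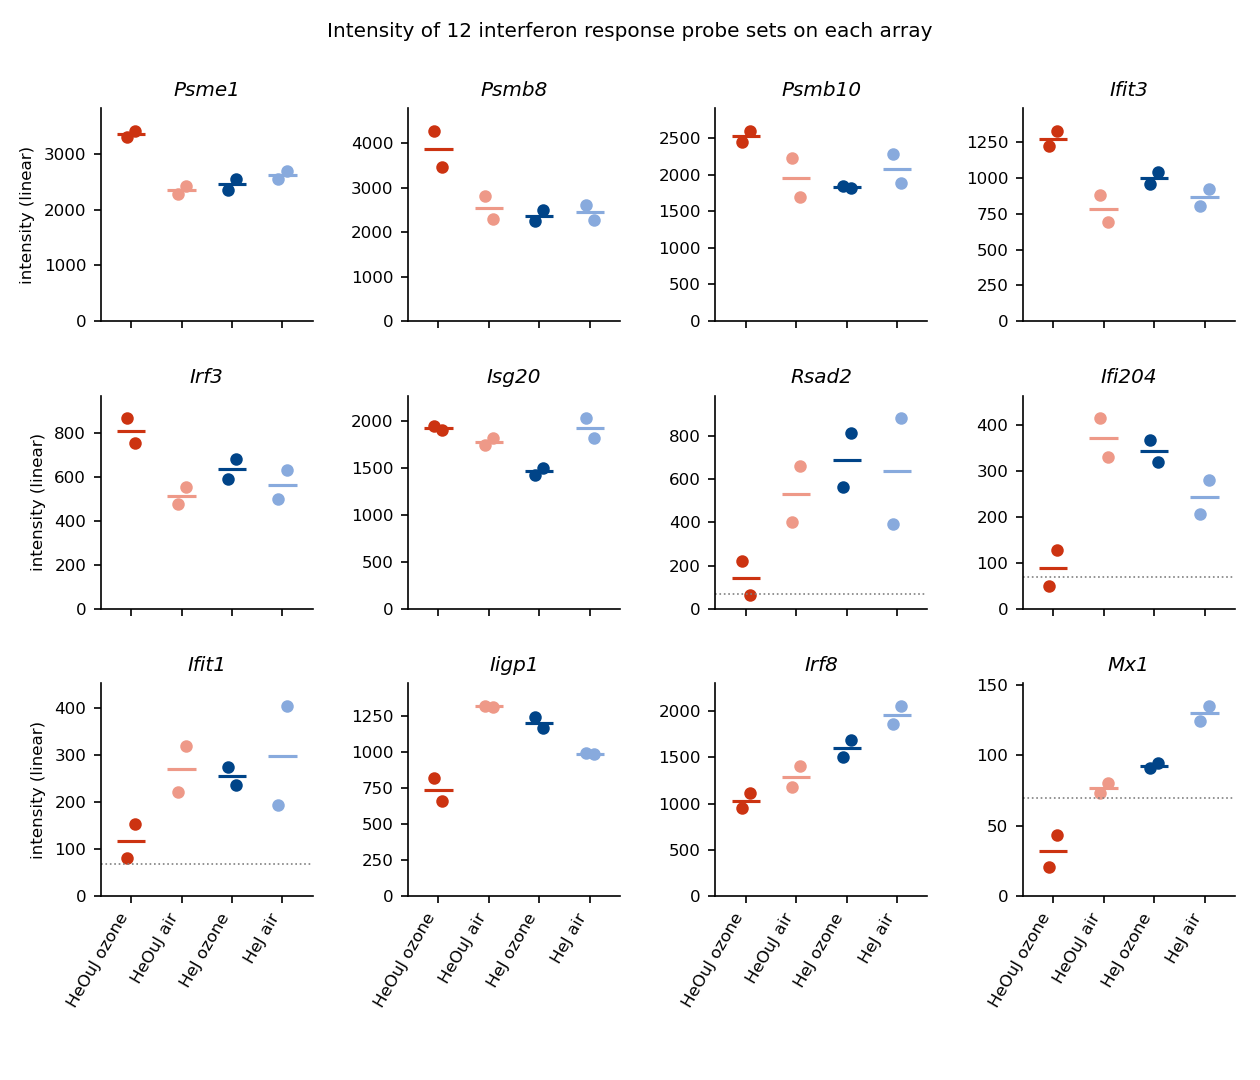
Intensity on a linear scale (y axis, from 0) of 12 member probe sets on each array; points are arrays, bars are the means of the 2 arrays of a group, and the dotted line is the floor of 69.6 where values come near it. Psme1, Psmb8, Psmb10, Ifit3 and Irf3 are highest in C3H/HeOuJ ozone, Rsad2, Ifi204, Ifit1 and Iigp1 are lowest there, and Irf8 and Mx1 are lower on all C3H/HeOuJ arrays than on all C3H/HeJ arrays.

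Isg15, the ubiquitin-like modifier and a standard readout of type I interferon, had 881 and 908 in C3H/HeOuJ ozone, 1029.7 and 1011 in C3H/HeOuJ air, 858 and 938 in C3H/HeJ ozone and 1029.5 and 1118 in C3H/HeJ air. Its ozone arrays were all below its air arrays. The difference was small, with a log2 fold change of -0.22 (SE 0.11, adjusted p 0.582 by limma) averaged over the strains. Over all 8 arrays, 2 member probe sets were higher in ozone without overlap, Ifit3 and 1 of Ifnar2, and 2 were lower, Isg15 and Igtp, out of 44; of all probe sets, 2.01% were higher and 1.22% lower.

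Isg20, an RNA exonuclease, was the member with the smallest p in C3H/HeJ. It had 1953 and 1908 in C3H/HeOuJ ozone, 1751 and 1817 in C3H/HeOuJ air, 1429 and 1502 in C3H/HeJ ozone and 2031 and 1823 in C3H/HeJ air. The C3H/HeJ ozone pair was the lowest of the 8. Its log2 fold change was 0.11 (SE 0.13) in C3H/HeOuJ and -0.39 (SE 0.13, adjusted p 0.994 by limma) in C3H/HeJ, a difference of 0.51 (SE 0.18, adjusted p 0.353).

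Mx1, a GTPase that blocks influenza virus and is inactive in most laboratory strains of mice, was dim: 20.6 and 43.7 in C3H/HeOuJ ozone, 73.2 and 80.3 in C3H/HeOuJ air, 90.8 and 94.6 in C3H/HeJ ozone and 125 and 135 in C3H/HeJ air. Both C3H/HeOuJ ozone arrays were below the floor, so the ozone effect in C3H/HeOuJ has only a bound, at least 1.10-fold lower. In air, where all arrays were above the floor, its log2 fold change was -0.76 (SE 0.26, adjusted p 0.813 by limma) for C3H/HeOuJ over C3H/HeJ. Ifitm3, which keeps viruses from leaving endosomes, lay between 13487 and 18899 on all arrays, with log2 fold changes of 0.14 (SE 0.16) in C3H/HeOuJ and -0.28 (SE 0.16) in C3H/HeJ. The other antiviral probe sets, of Mx2, Ifitm1, Eif2ak2, Adar, Trim25 and Ifi35, had unadjusted p-values above 0.05 in all 6 comparisons. Over the 17 antiviral probe sets, 6 were higher and 11 lower in C3H/HeOuJ ozone (median log2 fold change -0.18), and 8 were higher and 9 lower in C3H/HeJ ozone (median -0.10).

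The interferon-inducible GTPases act in the defence of cells against intracellular bacteria and parasites. Iigp1 (Irga6) had the smallest adjusted p of any member: its intensity was 816 and 658 in C3H/HeOuJ ozone, 1316 and 1312 in C3H/HeOuJ air, 1238 and 1166 in C3H/HeJ ozone and 993 and 982 in C3H/HeJ air. C3H/HeOuJ ozone was lowest and C3H/HeOuJ air highest. The log2 fold change was -0.84 (SE 0.17, adjusted p 0.0715 by limma) in C3H/HeOuJ and 0.28 (SE 0.17) in C3H/HeJ, a difference of -1.13 (SE 0.23, adjusted p 0.176). Adding the 5'/3' ratio to the model gave -1.03 in C3H/HeOuJ. The other Iigp1 probe set, whose suffix marks a gene family, disagreed, with 0.02 (SE 0.34) in C3H/HeOuJ and 0.64 (SE 0.34) in C3H/HeJ.

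Igtp (Irgm3) had 549 and 374 in C3H/HeOuJ ozone, 608 and 644 in C3H/HeOuJ air, 489 and 451 in C3H/HeJ ozone and 560.0 and 551 in C3H/HeJ air. Its ozone arrays were all below its air arrays, with a log2 fold change of -0.35 (SE 0.18, adjusted p 0.592 by limma) averaged over the strains. Irgm1, Ifi47, Gbp2 and Gbp3 had unadjusted p-values above 0.05 in all 6 comparisons, and their log2 fold changes in C3H/HeOuJ were 0.59 (SE 0.33), -0.41 (SE 0.31), -0.22 (SE 0.19) and -0.33 (SE 0.25). Of the 7 GTPase probe sets, 2 were higher and 5 lower in ozone in each strain.

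Among the transcription factors, Irf3, which is activated by phosphorylation upon nucleic acid or endotoxin sensing, had 866 and 752 in C3H/HeOuJ ozone, 477 and 553 in C3H/HeOuJ air, 589.7 and 679.7 in C3H/HeJ ozone and 499.9 and 630.3 in C3H/HeJ air. The C3H/HeOuJ ozone pair was above the other 6 arrays, with a log2 fold change of 0.65 (SE 0.23, adjusted p 0.231 by limma) in C3H/HeOuJ and 0.17 (SE 0.23) in C3H/HeJ. A second, dimmer Irf3 probe set of the family class had -0.29 (SE 0.37) and -0.60 (SE 0.37). Irf1, an early target of interferon gamma, lay between 2339 and 3230.1 on all arrays, with -0.01 (SE 0.14) in C3H/HeOuJ and -0.28 (SE 0.14) in C3H/HeJ.

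Irf8, a factor that macrophages, dendritic cells and B cells depend on, separated the strains. It had 951 and 1117 in C3H/HeOuJ ozone, 1177 and 1404 in C3H/HeOuJ air, 1504 and 1691 in C3H/HeJ ozone and 1862 and 2054 in C3H/HeJ air. All 4 C3H/HeOuJ arrays were below all 4 C3H/HeJ arrays, and within each strain the ozone pair was below the air pair. The log2 fold change of C3H/HeOuJ over C3H/HeJ was -0.62 (SE 0.11, adjusted p 0.107 by limma) averaged over the exposures, and that of ozone over air -0.31 (SE 0.11, adjusted p 0.469) averaged over the strains. Every C3H/HeOuJ array also had a higher actin 5'/3' ratio than every C3H/HeJ array, so strain and ratio cannot be told apart. In the model that holds the 5'/3' ratio the strain difference was -0.07 and the ozone difference -0.03. Both values rest on a slope taken within groups and extrapolated between them, and the part of the ratio was not tested. Irf5, Irf7 and Irf9 had unadjusted p-values above 0.05 in all 6 comparisons.

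Over all 8 arrays, Irf8 and Mx1 were the 2 member probe sets lower in C3H/HeOuJ without overlap, and 0 were higher, out of 44; of all probe sets, 2% were lower and 2.7% higher. At an unadjusted p under 0.05, 1 member was higher and 4 lower in C3H/HeOuJ averaged over the exposures, where 6.68% and 6.35% of all probe sets were. Psmb8 was the higher one (log2 fold change 0.38, SE 0.11), and Irf8, Mx1, Rsad2 (-1.32, SE 0.42) and Usp18 the lower ones. With the 5'/3' ratio held, Psmb8 turned to -0.23, and Rsad2 had -0.17, Mx1 -0.33 and Usp18 -0.66. In air alone 1 was higher, Iigp1 (0.41, SE 0.17), and 2 lower, Irf8 and Mx1, where 3.12% and 2.58% of all were. The C3H/HeOuJ ozone arrays enter the averaged value, and the median strain difference of the members was -0.04 averaged over the exposures and -0.07 in air.

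Of the 5 receptor probe sets, 4 were higher and 1 lower in C3H/HeOuJ ozone (median log2 fold change 0.23), where 52.7% of all probe sets were higher. In C3H/HeJ ozone 3 were higher and 2 lower (median 0.08), where 51.3% of all were higher. Ifngr1, the ligand-binding chain of the interferon gamma receptor, had 1319 and 1001 in C3H/HeOuJ ozone, 1272 and 760 in C3H/HeOuJ air, 1212 and 1037 in C3H/HeJ ozone and 949.5 and 986 in C3H/HeJ air. Its ozone and air arrays overlapped in C3H/HeOuJ, while both C3H/HeJ ozone arrays lay above the C3H/HeJ air arrays. The Ifnar2 probe set whose ozone arrays were all above its air arrays had 583 and 632 in C3H/HeOuJ ozone, 436 and 447 in C3H/HeOuJ air, 492 and 538 in C3H/HeJ ozone and 443 and 406 in C3H/HeJ air. Its log2 fold change averaged over the strains was 0.37 (SE 0.16, adjusted p 0.545 by limma), and the other Ifnar2 probe set had -0.22 (SE 0.21). Ifnar1, the partner chain, had -0.75 (SE 0.33) in C3H/HeOuJ and -0.08 (SE 0.33) in C3H/HeJ, and Ifngr2 had 0.41 (SE 0.28) and 0.08 (SE 0.28).

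The inhibitors close the loop, Usp18 by displacing Jak1 from Ifnar2 and by removing Isg15 from proteins, Socs1 by blocking the kinases. Usp18 had 414 and 393 in C3H/HeOuJ ozone, 640.0 and 515 in C3H/HeOuJ air, 606 and 671 in C3H/HeJ ozone and 621 and 618 in C3H/HeJ air. The C3H/HeOuJ ozone pair was the lowest of the 8, with a log2 fold change of -0.51 (SE 0.23, adjusted p 0.329 by limma) in C3H/HeOuJ and 0.04 (SE 0.23) in C3H/HeJ. Averaged over the exposures, Usp18 was lower in C3H/HeOuJ than in C3H/HeJ by a log2 fold change of -0.38 (SE 0.16, adjusted p 0.359 by limma). Socs1 had -0.11 (SE 0.33) in C3H/HeOuJ and -0.32 (SE 0.33) in C3H/HeJ.

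The ozone effects of the strains were compared directly by their difference. At an unadjusted p under 0.05, 4 member probe sets had a higher and 4 a lower ozone effect in C3H/HeOuJ than in C3H/HeJ, out of 44, where 5.13% and 6.3% of all probe sets did. The higher ones were Psme1, Psmb8 (0.65, SE 0.23), Psmb10 (0.56, SE 0.23) and Isg20, and the lower ones Ifi204 (-2.48, SE 0.58), Rsad2 (-2.26, SE 0.84), Ifit2 (-1.37, SE 0.58) and Iigp1. The model that holds the 5'/3' ratio gave differences of 0.21 for Psmb8, 0.13 for Psmb10, 0.78 for Psme1 and -1.44 for Rsad2. All 4 immunoproteasome probe sets with a usable level had a higher log2 fold change in C3H/HeOuJ, and over all 44 members the median difference was 0.01. Averaged over the strains, 4 members were higher in ozone (Ifit3, Irf3, Psme1 and Psmb8) and 3 lower (Ifi204, Iigp1 and Irf8) at an unadjusted p under 0.05, where 4.71% and 4.54% of all probe sets were.

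**Figure D4:**
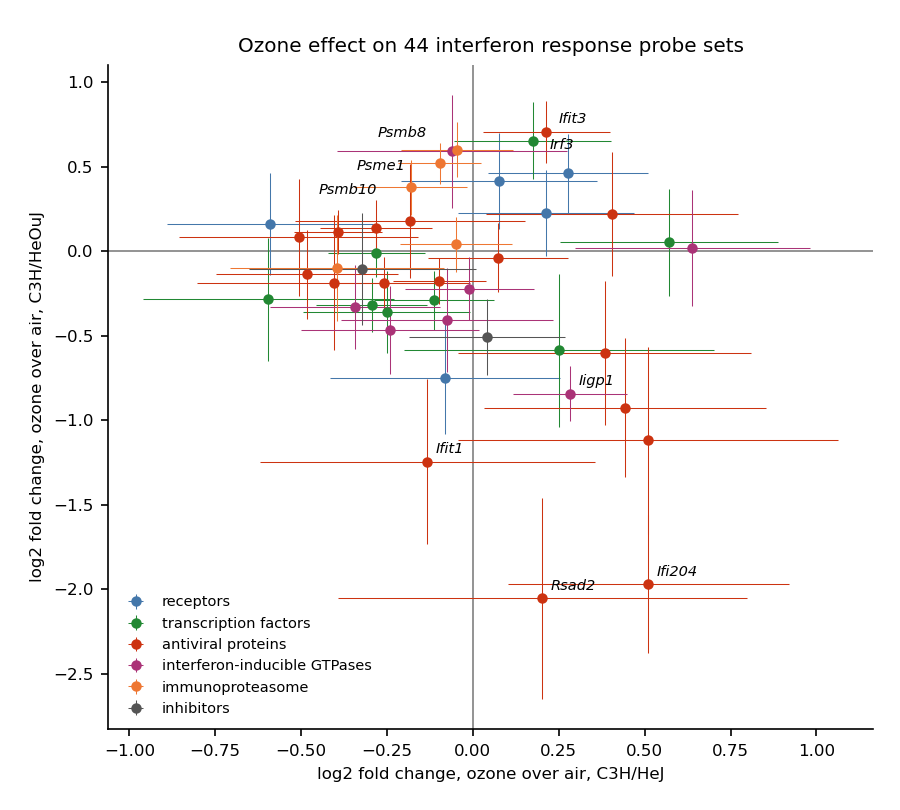
Log2 fold change of ozone over air in C3H/HeOuJ (y axis) against that in C3H/HeJ (x axis) for the 44 tested member probe sets, coloured by role, with standard errors as lines; names are given for the 9 with an unadjusted p under 0.05 in C3H/HeOuJ. Values in C3H/HeOuJ run from -2.05 for Rsad2 to 0.71 for Ifit3, while all values in C3H/HeJ lie between -0.60 and 0.64.

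Other genes of the pathway were taken from a list of ligands, kinases and STATs, nucleic acid sensors, induced genes and inhibitors. Of 82 genes listed, 51 were tested, and 0 passed the limma threshold in any of the 6 comparisons. In C3H/HeOuJ ozone 25 were higher and 26 lower, the median log2 fold change being -0.01, and 4 higher and 5 lower at an unadjusted p under 0.05, where 8.06% of all 7629 genes tested were higher and 8.49% lower. In C3H/HeJ ozone 24 were higher and 27 lower, with a median of -0.04, and 1 was higher and 3 lower at that p, where 2.45% and 1.95% of all genes were.

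Ifng, the gene of interferon gamma, was below the floor on all 8 arrays, and Ifnb1 lay between 25.9 and 189. Gbp7, a guanylate-binding GTPase, followed the order of Iigp1: it had 946 and 678 in C3H/HeOuJ ozone, 1355 and 1373 in C3H/HeOuJ air, 1347 and 1339 in C3H/HeJ ozone and 939 and 984 in C3H/HeJ air. C3H/HeOuJ air and C3H/HeJ ozone were high, and the other groups were low. Its log2 fold change was -0.77 (SE 0.18, adjusted p 0.111 by limma) in C3H/HeOuJ and 0.48 (SE 0.18) in C3H/HeJ. Jak1, a kinase of both receptors, had 1502 and 1227 in C3H/HeOuJ ozone, 1587 and 2039 in C3H/HeOuJ air, 1473 and 1505 in C3H/HeJ ozone and 2096 and 2199 in C3H/HeJ air. All 4 ozone arrays were below all 4 air arrays, with a log2 fold change of -0.47 (SE 0.12, adjusted p 0.308 by limma) averaged over the strains.

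Further induced genes with an unadjusted p under 0.05 in C3H/HeOuJ were Ifi27 (0.60, SE 0.17) and Ifi30, a lysosomal thiol reductase (0.76, SE 0.26), which were higher in ozone. Trim30a (-1.25, SE 0.36), Ido1, which degrades tryptophan (-1.41, SE 0.57), and Lgals3bp (-0.48, SE 0.17) were lower. For Trim30a and for Ido1, 1 C3H/HeOuJ ozone array was below the floor. The inhibitors Cish and the phosphatase gene Ptpn6 had 0.88 (SE 0.28) and 0.91 (SE 0.31).

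Some cell type markers also stood apart on the C3H/HeOuJ ozone arrays. The summed intensity of the 7 measured lung epithelium markers of 10 was highest there, at 236117 and 226302, against 181598 and 148958 in C3H/HeOuJ air, 177555 and 152058 in C3H/HeJ ozone and 201196 and 165712 in C3H/HeJ air. Surfactant protein C and club cell secretory protein made up most of that sum. Their genes Sftpc (log2 fold change of ozone over air in C3H/HeOuJ 0.92, SE 0.29) and Scgb1a1 (0.48, SE 0.29) were higher, and Sftpb (-0.19, SE 0.29) and Sftpd (-0.80, SE 0.47) lower. Of the 7 markers 5 were higher and 2 lower, with a median of 0.15.

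For the plasmacytoid dendritic cell, a main source of type I interferon, 4 of 7 listed markers were measured (the defining Siglech and Bst2 were not analysed here). Their sum was lowest in C3H/HeOuJ ozone, at 1419 and 1477, against 1847 and 2048 in C3H/HeOuJ air, 2103 and 2369 in C3H/HeJ ozone and 2028 and 2667 in C3H/HeJ air. Most of it was Tcf4, a transcription factor that other cells make too, with 955 and 962 in C3H/HeOuJ ozone, 1327 and 1799 in C3H/HeOuJ air, 1442 and 1962 in C3H/HeJ ozone and 1553 and 1858 in C3H/HeJ air. The list itself did not move together in C3H/HeOuJ, since Tcf4 and Ccr9 were lower and Ly6d and Klk1 higher in ozone (median 0.05 on the log2 scale). Of 8 endothelial markers 6 were lower in C3H/HeOuJ ozone, and Kdr (0.32, SE 0.22) and Cldn5 (0.13, SE 0.16) were higher. Lower at an unadjusted p under 0.05 were 3 of the 8, Pecam1 (-1.25, SE 0.39), Tek and Tie1, where 8.49% of all genes tested were. The macrophage chitinase-like gene Chil3 passed the threshold, with 2719 and 2459 in C3H/HeOuJ ozone, against 7031 and 4978 in C3H/HeOuJ air (log2 fold change -1.19, SE 0.18, adjusted p 0.0464 by limma). In C3H/HeJ it had 2062 and 1730 in ozone and 3060 and 2738 in air. Chil3 was thus highest on the C3H/HeOuJ air arrays, and in each strain both ozone arrays lay below both air arrays. Of the 10 macrophage markers tested, 5 were higher and 5 lower in C3H/HeOuJ ozone (median -0.02). Cd68 (0.41, SE 0.18) and Lyz2 (0.49, SE 0.23) were among the higher ones. Mpeg1 (-0.62, SE 0.19) and Adgre1 (-0.90, SE 0.51) were among the lower ones, with 1 C3H/HeOuJ ozone array of Adgre1 below the floor. The red cell gene Hba-a1 had 0.81 (SE 0.28) in C3H/HeOuJ, and Alas2, the only other red cell marker measured, had -0.08 (SE 0.17). The part of these markers in the members' values was not tested.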

How the data were processed

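The authors deposited a linear intensity for each probe set on each array. Array means with 2% trimmed at each end were all between 800.39 and 800.41, which shows a common scaling of the deposited intensities; which software made them is not stated. An array annotation of 2016 supplied gene names, 1 gene for 10833 probe sets. Log2 was taken after lifting values under the 20th percentile (69.63) to that floor. A probe set was tested when at least 2 of 8 arrays exceeded the floor, which held for 10953 and failed for 1469. One model of 4 group means was fitted to the 8 arrays with limma 3.58.1 in R 4.3.3 (eBayes with an intensity trend, 4 residual and 4.54 prior degrees of freedom). Adjustment was by Benjamini-Hochberg over all probe sets tested. Fold changes are ozone over air or C3H/HeOuJ over C3H/HeJ, and the number of arrays limits their precision. Probe sets of a gene were kept apart; gene lists were counted with 1 probe set per gene, that of highest mean.

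The members, the lists of pathway and cell type genes and the tests were chosen with earlier results of these data known, and the standard proteasome genes were added later. Member probe sets past the threshold, with an unadjusted p under 0.05 in a comparison, or without overlap between ozone and air or between the strains over all 8 arrays were named with their values, together with the brightest gene of each role; the rest are given by range and count. Of the other pathway genes, those of smallest p were named. The model was tested on simulated data with planted changes larger than those of most members. That test does not show how often changes as small as theirs would be found. Plots used Python 3.11.15 with pandas 2.3.3 and matplotlib 3.10.9. Same-lettered arrays of different groups did not deviate together in all pairs, so the letters 1a and 1b were not used as a pairing.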

Additional observations from a re-analysis of the deposited data

How the results depend on the processing

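The count of members past the threshold stayed at 0 in 103 of 105 combinations of comparison and alternative. It was 1 in the ozone effect in C3H/HeOuJ when probe sets above the median level alone were tested (Iigp1, adjusted p 0.0402 by limma, -0.84), and 1 in the strain difference averaged over the exposures without a filter on dim probe sets (Mx1, adjusted p 0.0302, -0.59). The count over all probe sets for the ozone effect in C3H/HeOuJ, 50, ran from 0 (without the intensity trend, with the compared arrays alone, with the 5'/3' covariate, or without any 1 of 6 arrays) to 172 (above the median level). Averaging a gene's probe sets gave 0 member genes.

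The members' median log2 fold change for the ozone effect in C3H/HeOuJ, -0.12, was 0.0033 above the median level, -0.32 with the 5'/3' covariate, and between -0.19 and -0.018 leaving out each array. The strain difference averaged over the exposures, -0.04, was -0.26 with the covariate; that in air, -0.07, lay between -0.076 and 0.028 leaving out each array. The difference of the ozone effects, 0.01, was -0.20 with the covariate and lay between -0.060 and 0.11 leaving out each array. With the covariate the sign turned for Ifit1 (0.59) and Psmb10 (-0.14) in C3H/HeOuJ, and for Psmb8 averaged over the strains (-0.032) and in the strain difference averaged over the exposures (-0.23); the cause was not tested. Of 565 values of single members, 559 kept direction and side of the threshold. That count takes no account of size, and no member was past the threshold to begin with. A strain difference of Irf8 that went from -0.62 to -0.07 with the covariate counts as kept.

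The letters as a replicate block gave 0 members and 57 probe sets in all for the ozone effect in C3H/HeOuJ; correlations between groups of the 1a minus 1b differences ran from -0.0101 to 0.138. Signal near the floor limits the members Mx1, Ifi204, Ifit1, Ifit2 and Rsad2 in C3H/HeOuJ ozone, and the other pathway genes Trim30a and Ido1.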
